A study of Mus musculus with 15 samples.

Results

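Long H3K9me3 domains are the broad peaks of 5 kb or more in the H3K9me3 library of wild-type (WT) mouse liver, on chromosomes 1 to 19. There were 1231 of them among 53980 WT broad peaks (2.28%), and they held 11.7 of the 56.4 Mb that the WT peaks covered (20.7%). Their length in the WT list chose them, so length and WT signal are given here as a description, and coverage in the knockout, gene content and the other 2 marks are measures the rule did not use.

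The study profiled histone marks by ChIP-seq in whole liver of C57Bl/6 mice. In the Uhrf1hepKO livers (KO) Uhrf1 was knocked out in hepatocytes, and the comparison livers were WT. Both genotypes were 8 to 12 weeks old, on normal diet, with livers taken between 9am and noon. H3K9me3 had 1 KO and 1 WT library, both of round 2. H3K4me3 had 2 KO and 2 WT libraries, of which replicate 2 of each genotype was of round 2 and replicate 1 carried no round in the labels. H3K27me3 had 1 KO library, 2 WT baseline libraries, of which replicate 2 was the 0 h point of a regeneration series of round 3, and 1 WT library each at 30, 40 and 96 h of regeneration. The 2 H3K4me3 libraries of round 2 bore an antibody tag naming H3K9me3 and were grouped by their titles. The knockout is named for hepatocytes, so the other cells of a KO liver kept the gene, and in whole liver fewer marked cells and less mark per cell cannot be told apart. All 10 defining hepatocyte markers carried H3K4me3 over the gene in each of the 4 libraries, and so did 3 of 3 endothelial and 3 of 3 stellate markers. Of 3 macrophage markers, 0 and 3 carried it in KO replicates 1 and 2 and 1 and 3 in WT replicates 1 and 2. Of 3 lymphocyte markers, 1 and 2 carried it in KO and 1 and 1 in WT, and of 3 bile duct markers 2 did in each library. None of these markers, nor Uhrf1 itself, lay in a long domain. Both annotated starts of Uhrf1 carried H3K4me3 in all 4 libraries, which does not test the deletion.

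H3K9me3 is laid down by histone methyltransferases such as Setdb1 and the Suv39h enzymes and is read by heterochromatin protein 1. It marks silent repeats, and it also covers clusters of KRAB zinc finger genes, a fast-evolving family whose proteins bind transposable elements and bring the silencing machinery to them. Uhrf1 binds hemimethylated DNA and H3K9 methylation and recruits the maintenance DNA methyltransferase Dnmt1 after replication. Polycomb complexes deposit H3K27me3 at silent genes, while H3K4me3 is found at the starts of active genes.

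The longest domain spanned 94.6 kb (chromosome 4, 146451894 to 146546527, GRCm38) over Zfp981, most of Zfp992 and the start of Zfp993. Zinc finger genes were taken here by the pattern of their symbols, so family members with other symbols count among the other genes. Promoter sequences of zinc finger genes are shown first. They are grouped by position, first starts that lie in a domain and then starts outside, in genes that carry a domain over the body. Each is the RefSeq window of 300 bases (250 before to 50 after the start, GRCm38.p6), written 5′ to 3′ on the strand of the gene, with every CG dinucleotide in capitals. The first 4 windows lay wholly in a long domain, and the other 3 lay outside all WT broad peaks in genes whose bodies hold one. Zfp981 is at chr4:146514670-146514969 (+), Zfp988 at chr4:147305354-147305653 (+) and Zfp977 at chr7:42592496-42592795 (-). Zfp982 has a start in a domain at chr4:147492167-147492466 (+) and another outside at chr4:147442864-147443163 (+). Zfp97 is at chr17:17121133-17121432 (+) and Zfp442 at chr2:150451452-150451751 (-).
Zfp981, in a domain: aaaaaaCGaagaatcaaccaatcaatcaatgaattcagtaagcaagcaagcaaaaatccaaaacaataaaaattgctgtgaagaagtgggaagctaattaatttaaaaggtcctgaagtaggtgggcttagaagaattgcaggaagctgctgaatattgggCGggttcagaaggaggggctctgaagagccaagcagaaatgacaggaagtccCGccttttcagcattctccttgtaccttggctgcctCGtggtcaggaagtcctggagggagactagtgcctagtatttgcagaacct
Zfp988, in a domain: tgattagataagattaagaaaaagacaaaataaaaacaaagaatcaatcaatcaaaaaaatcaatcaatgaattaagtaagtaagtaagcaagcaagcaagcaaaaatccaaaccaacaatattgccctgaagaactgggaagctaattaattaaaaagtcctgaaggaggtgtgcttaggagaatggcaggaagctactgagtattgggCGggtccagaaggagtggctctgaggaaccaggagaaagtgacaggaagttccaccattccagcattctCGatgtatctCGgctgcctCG
Zfp977, in a domain: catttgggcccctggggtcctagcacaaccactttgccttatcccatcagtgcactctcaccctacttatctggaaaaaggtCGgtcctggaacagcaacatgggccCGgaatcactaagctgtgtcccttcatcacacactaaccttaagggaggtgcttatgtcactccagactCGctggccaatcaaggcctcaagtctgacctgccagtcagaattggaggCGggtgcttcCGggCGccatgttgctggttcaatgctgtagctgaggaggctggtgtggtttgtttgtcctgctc
Zfp982, start in a domain: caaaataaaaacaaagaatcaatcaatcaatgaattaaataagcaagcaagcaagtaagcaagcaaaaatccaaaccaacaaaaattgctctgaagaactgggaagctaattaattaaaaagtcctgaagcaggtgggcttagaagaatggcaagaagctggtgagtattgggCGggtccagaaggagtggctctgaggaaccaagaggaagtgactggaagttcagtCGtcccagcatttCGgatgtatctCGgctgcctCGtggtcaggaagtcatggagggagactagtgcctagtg
Zfp982, start outside: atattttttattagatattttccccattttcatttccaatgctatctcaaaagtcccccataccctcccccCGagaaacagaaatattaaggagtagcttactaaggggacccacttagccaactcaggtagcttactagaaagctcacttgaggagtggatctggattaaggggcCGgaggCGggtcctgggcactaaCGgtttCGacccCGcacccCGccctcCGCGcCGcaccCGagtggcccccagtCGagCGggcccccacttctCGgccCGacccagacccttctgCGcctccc
Zfp97, start outside: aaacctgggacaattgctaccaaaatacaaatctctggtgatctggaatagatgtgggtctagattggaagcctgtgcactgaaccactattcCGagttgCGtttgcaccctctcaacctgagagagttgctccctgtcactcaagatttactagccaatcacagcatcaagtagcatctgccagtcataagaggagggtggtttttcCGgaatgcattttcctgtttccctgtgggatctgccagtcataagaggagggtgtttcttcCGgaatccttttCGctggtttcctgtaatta
Zfp442, start outside: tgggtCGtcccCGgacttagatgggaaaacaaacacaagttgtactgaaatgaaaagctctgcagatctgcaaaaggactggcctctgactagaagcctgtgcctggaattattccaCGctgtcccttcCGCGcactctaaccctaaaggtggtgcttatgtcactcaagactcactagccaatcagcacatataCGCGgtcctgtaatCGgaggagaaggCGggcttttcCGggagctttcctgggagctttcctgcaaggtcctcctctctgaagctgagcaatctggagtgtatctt

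The Zfp981, Zfp988, Zfp977 and in-domain Zfp982 windows held 4, 4, 6 and 5 CG dinucleotides and no base of an H3K4me3 peak in any of the 4 libraries, and KO broad peaks covered all 300 bases of each. The outside start of Zfp982 held 16 CG and had H3K4me3 over 159 and 174 bases in KO replicates 1 and 2 and 163 and 158 bases in WT replicates 1 and 2. Zfp97 held 5 CG and Zfp442 held 10, and H3K4me3 covered all 300 bases of both in all 4 libraries. A window could thus be as poor in CG as those in domains and still carry H3K4me3. The in-domain windows of Zfp981 and Zfp982 were 79.6% identical over a global alignment of 314 columns, and those of Zfp988 and Zfp982 were 71.1% identical over 339 columns. Zfp977, on another chromosome, was 48.6% identical to Zfp981, close to the 46.2% between the inside and outside starts of Zfp982.

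Over all protein-coding genes, 40 promoter windows of 39 genes lay wholly in a long domain. They held a median of 4 CG dinucleotides, against 14 in the 20085 windows of all protein-coding genes, and 37 of the 40 also touched a KO broad peak, as 131 of the 20085 did. H3K4me3 touched 8 and 0 of them in KO replicates 1 and 2 and 5 and 0 in WT replicates 1 and 2, where 58.8% and 56.7% of all windows carried it in the KO libraries and 59.9% and 53.4% in the WT libraries. Of the 40, 8 windows belonged to 7 zinc finger genes (Zfp600, Zfp981, Zfp993, Zfp988, Zfp982, Zfp979 and Zfp977), all 8 were in KO peaks and none had H3K4me3 in any library. Zinc finger genes with a long domain more often had their start outside. There were 112 such windows, of 93 genes and with a median of 9 CG, outside WT broad peaks, and H3K4me3 touched 102 and 101 of them in KO and 102 and 100 in WT, with 2 in a KO H3K9me3 peak. Of the 105 zinc finger genes that carry a domain and have a window in the table, 7 had a start wholly inside.

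**Figure D1:**
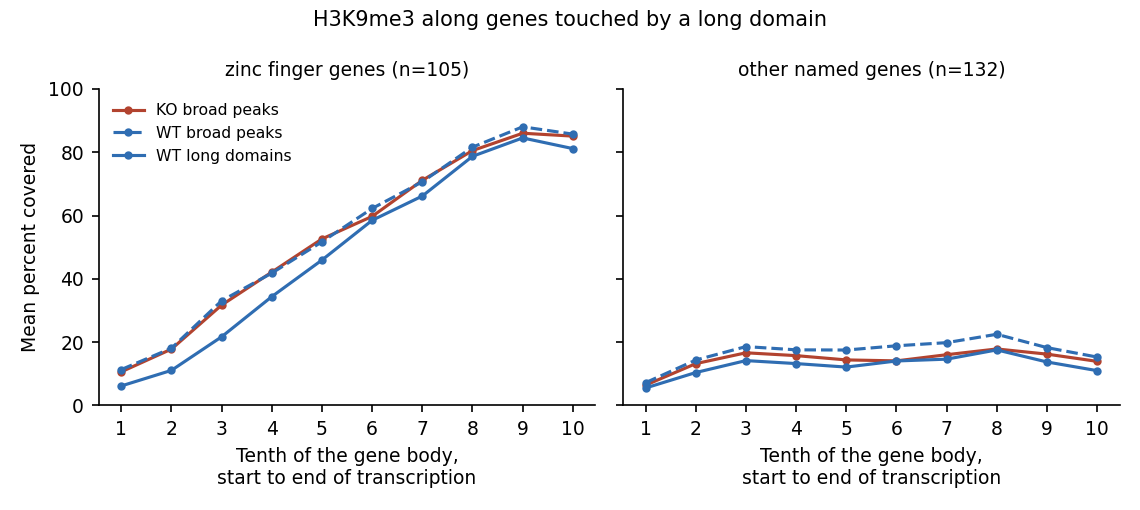
Mean percent of each of 10 equal bins of the gene body covered by H3K9me3, from the start to the end of transcription, in genes touched by a long domain. Red is KO broad peaks, dashed blue WT broad peaks and solid blue WT long domains. In 105 zinc finger genes coverage climbs to over 80% in the last bins in KO and WT, and in 132 other named genes it stays under 25%.

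The bodies of the 105 zinc finger genes were cut into 10 equal bins from start to end. KO broad peaks covered on average 10.6% of the first bin and 86.0% and 85.1% of the last 2. WT broad peaks covered 11.3% of the first bin and 88.0% and 85.7% of the last 2. The mark lay mostly over the 3′ part of these genes, which encodes the finger array, in KO as in WT. In 132 other named genes with a domain, KO broad peaks covered between 6.37% and 17.8% of a bin and WT broad peaks between 7.15% and 22.5%, with no such gradient. In 90 genes with provisional symbols (Gm, LOC or Rik) coverage also climbed. KO broad peaks covered 30.7% of their first bin and 75.8% of the ninth, and WT broad peaks covered 35.9% and 78.6% of these bins. The profile is drawn over genes chosen for a WT domain, so the height of the WT curve follows from the choice and the KO curve does not.

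Zinc finger genes, as taken by symbol, were the gene family most often under a long domain among the families listed. Of 20665 protein-coding genes, 410 touched a domain (1.98%), and 119 of them were among the 419 zinc finger genes (28.4%, exact 95% interval 24.1% to 33.0%, counting error only, and neighbours share domains). Of the other 20246 protein-coding genes, 291 touched a domain (1.44%), of which 113 bore provisional symbols (Gm, LOC or Rik) and 178 were named. By domain, 155 of 1231 (12.6%, interval 10.8% to 14.6%) touched a zinc finger gene, against 1.23 percent of all WT broad peaks. Any protein-coding gene was touched by 513 (41.7%, interval 38.9% to 44.5%), against 26.2 percent of all WT broad peaks, although longer regions touch genes more easily. By length, 41.2% of the domains and 28.4% of all WT broad peaks lay in bodies of protein-coding genes. These bodies take 40.3% of the annotated span of chromosomes 1 to 19, so the domains lay in genes at about that share. No annotated gene at all was touched by 564 domains, and 154 touched non-coding genes or pseudogenes and no coding gene.

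Domains took up much of a zinc finger gene and little of other named genes. The median share of the body was 47.4% in zinc finger genes, with a median gene length of 21.5 kb, and 5.18% in other named genes, with a median length of 164 kb. Of the 120 genes with at least 50% of the body in domains, 53 were zinc finger genes, 60 had provisional symbols and 7 were others. Zfp981 and Zfp977 lay wholly in a domain, and Zfp992 lay 96.4% in domains, Zfp960 92.6%, Zfp97 89.5%, Zfp640 89.0%, Zfp873 88.9%, Zfp273 88.0% and Zfp110 85.2%. KO broad peaks covered between 98.6% and 100% of the domain part of each of these 9 genes. The 7 others by symbol were AB010352, AI987944, AW146154, BC024063, AU041133, the mitochondrial carrier gene Slc25a2 and the TFIID subunit gene Taf7. Whether any of these encodes zinc fingers was not checked. Taf7 stood apart, with 63.3% of its 3.71 kb in a domain and 9.62% of that part in KO peaks, although the domain as a whole was at least 50% covered in KO. Over its whole body, in or out of the domain, Taf7 carried H3K4me3 on 1494 and 1054 bases in KO replicates 1 and 2 and 1849 and 845 bases in WT replicates 1 and 2.

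Most other families held few domains. Clustered protocadherin genes, which encode neuronal adhesion proteins from alternative promoters, had 8 of 57 members touched (Pcdha1 to Pcdha7 and Pcdhga1). KO peaks covered 70.6% of the domain length when summed gene by gene. Bodies in this cluster overlap, so 1 domain can count for several of the 8 genes in both figures. Of 98 cytochrome P450 genes 4 were touched (Cyp2j8, Cyp3a16, Cyp2j13 and Cyp3a41b), with 84.2% covered in KO. Of 352 vomeronasal receptor genes 2 were touched (Vmn2r57 and Vmn2r35), of 1104 olfactory receptor genes 2 (Olfr212 and Olfr1388), and of 46 germline genes 1, Tdrd9, a helicase gene of transposon silencing in the male germ line. No member was touched among 22 major urinary protein, 62 serpin, 70 defensin, 11 Skint, 36 imprinted, 48 hepatocyte, 50 developmental transcription factor and 18 housekeeping genes, or among 28 genes of the H3K9 methylation machinery. None was touched among 16 endothelial, 15 stellate, 15 myeloid, 20 lymphocyte and 15 bile duct markers. Of 8884 pseudogenes 154 were touched (1.73%), of 12408 lncRNA genes 81 (0.653%), of 391 tRNA genes 4, and of 1136 miRNA genes 0.

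Domains were clustered. Another long domain lay within 100 kb of 624 (50.7%, interval 47.9% to 53.5%), 607 were alone, and the 624 formed 152 runs. Of the gaps between neighbours on a chromosome, 177 were 10 kb or less, the median was 356 kb and the longest 26.7 Mb. Gaps of 3 kb or less numbered 106, and 1 region called as several peaks counts as clustered here. No share for randomly placed domains was computed. The 34 runs of 5 or more domains held 27.1% of the domains and 40.3% of their length. The densest chromosomes by domains per Mb were 13, with 124 domains and 1.06 per Mb, and 17, with 86 and 0.907, and chromosome 14 had the fewest, at 0.168. The long domains of KO, called in a separate library, were clustered to a like degree (53.6% within 100 kb), and 77.7% of them touched a WT long domain.

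**Figure D2:**
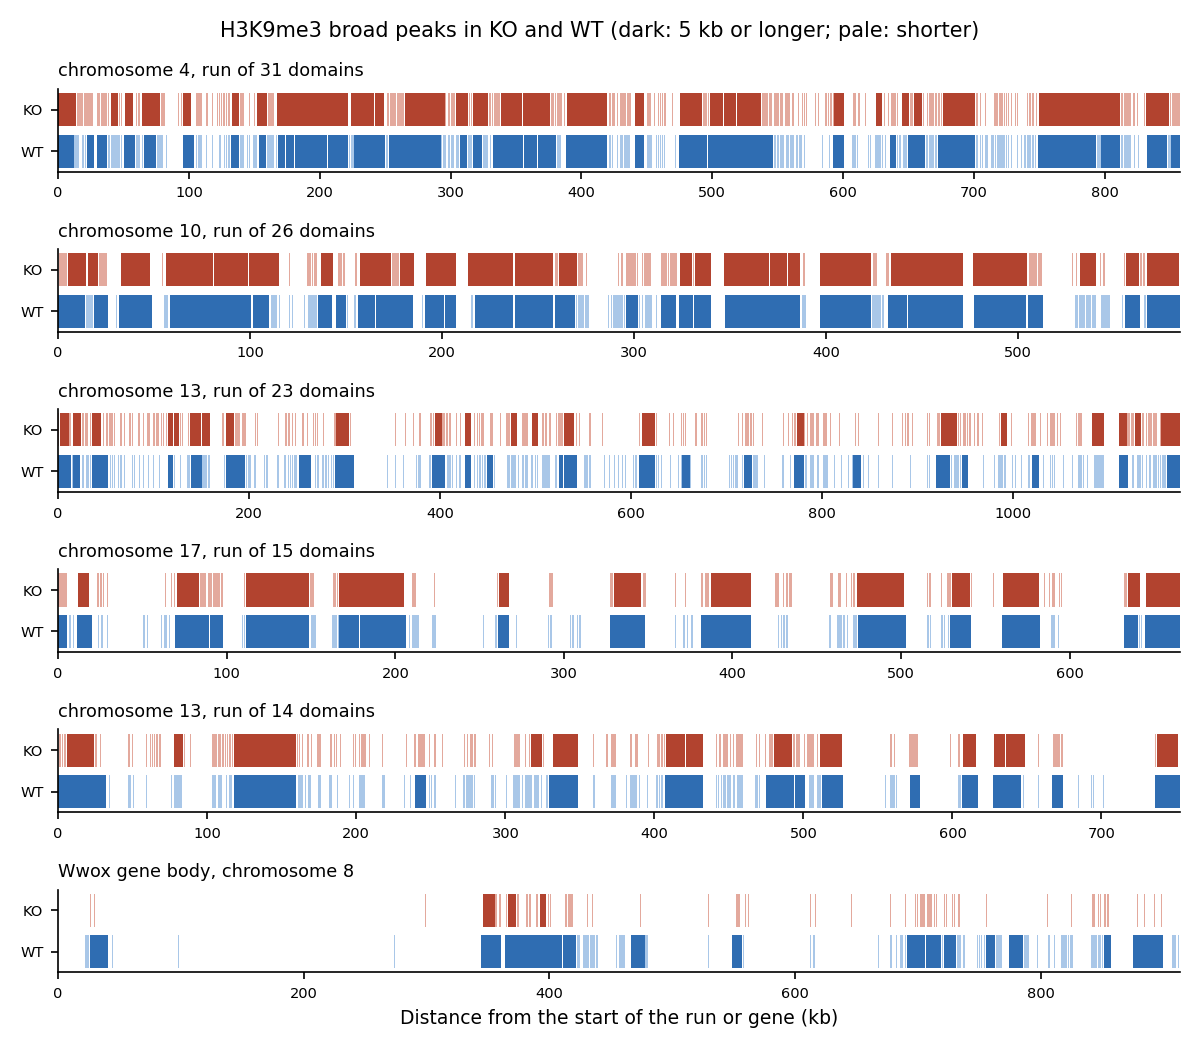
H3K9me3 broad peaks in KO (red, upper track) and WT (blue, lower track) over the 5 runs with the most WT long domains and over the body of Wwox, by distance from the start in kb. Dark bars are peaks of 5 kb or more and pale bars are shorter. The KO track repeats most WT blocks of the chromosome 4, 10 and 17 runs, and the Wwox body has 21.2 kb of dark bars in KO and 192 kb in WT.

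The run with the most domains lay in distal chromosome 4 (146986825 to 147844206), with 31 domains over 857 kb. Of its 11 coding genes 10 had zinc finger symbols, among them Zfp978, Zfp982, Zfp984 and Zfp988, and the other was Rex2. KO broad peaks covered 73.8% of this span and WT broad peaks 76.3%, and 93.9% of its domain length was covered in KO. The chromosome 10 run (81652994 to 82237347, 26 domains, with Zfp433, Zfp781, Zfp873 and Zfp938) had 71.8% of its span in KO peaks and 77.1% in WT peaks. The chromosome 17 run with 15 domains (21804033 to 22469372) held 9 zinc finger genes among 10 coding genes, with 43.7% of its span in KO peaks and 48.1% in WT peaks. On chromosome 13, the run of 23 domains (65505069 to 66679649), with Zfp640 and 10 provisional genes, had 38.1% in KO peaks and 44.1% in WT peaks, and 77.5% of its domain length was covered in KO. Another chromosome 17 run (16954955 to 17325683, 13 domains, with Zfp960 and Zfp97) was 78.9% domain, and 98.0% of that was covered in KO.

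Most of the length of the domains was also marked in KO. KO broad peaks covered 84.6% of it, the median domain was covered over 86.7% of its length, and 1148 of 1231 (93.3%, interval 91.7% to 94.6%) were covered over at least 50%. The same held for 50.1 percent of all WT broad peaks, most of which are short. The share at least 50% covered was 41.7% of peaks under 1 kb, 64.0% of 1 to 2 kb, 78.2% of 2 to 5 kb, 92.6% of 5 to 10 kb, 94.6% of 10 to 20 kb and 97.8% of 20 kb or more, so it climbed with length on both sides of the 5 kb limit. The 20 shortest members (5002 to 5051 bp) had a median of 72.8% and the 20 longest peaks below the limit (4958 to 4994 bp) 71.1%. There was 1 library per genotype, so this comparison has no replicate check and no test.

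**Figure D3:**
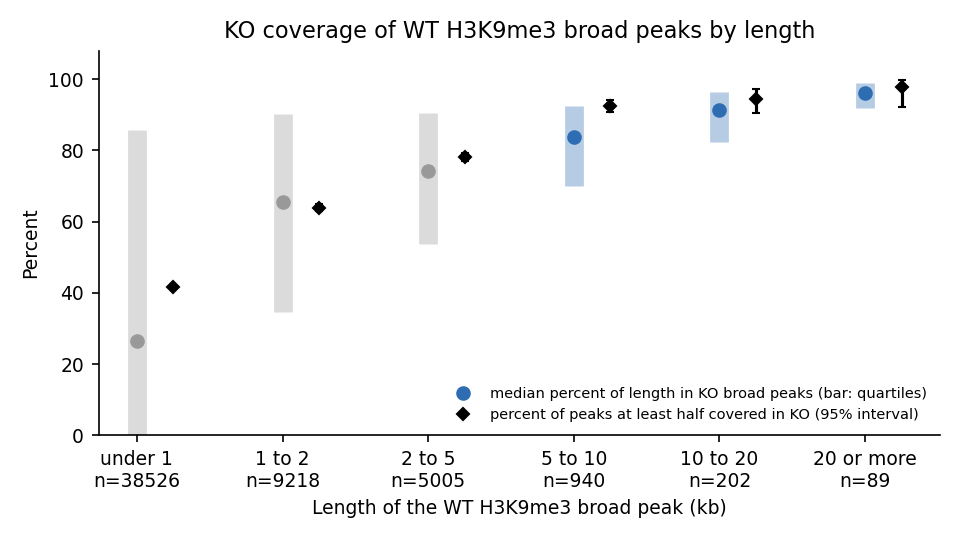
Coverage of WT H3K9me3 broad peaks by KO broad peaks against the length of the WT peak in kb. Circles are the median percent of a peak's length with quartiles as bars, diamonds are the percent of peaks at least 50% covered with exact 95% intervals, and blue marks the long domains. Medians go up with length, to 96.1% for domains of 20 kb or more.

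Fewer domains reached 5 kb in KO. The KO list held 907 long domains over 8.85 Mb among 50069 broad peaks over 48.5 Mb, and the longest was 55458 bp, against 94634 bp in WT. Of the 907, 901 lay at least 50% in WT broad peaks (99.3%, interval 98.6% to 99.8%), and none lacked a WT peak. The WT domains were often broken in KO: 478 met 1 KO peak, 438 met 2 and 308 met 3 or more, and 684 (55.6%) touched a KO long domain. Of the 1795.5 kb of domain length with no KO peak, 56.0% lay between KO peaks of a domain, 41.4% at its edges and 2.62% in the 7 domains with no KO peak. KO peaks also reached past an end of 854 domains, by 1751 kb when summed domain by domain. This sum can include length inside neighbouring WT peaks, and can count a stretch for more than 1 domain. It is therefore not a length gained in KO.

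**Figure D4:**
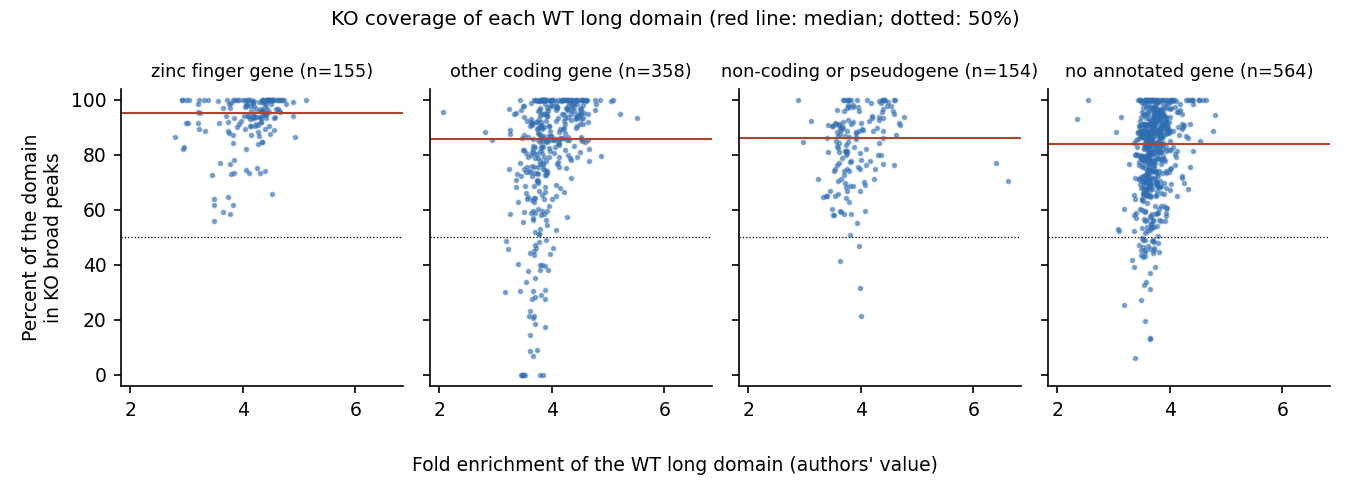
Percent of each WT long domain in KO broad peaks against the authors' fold enrichment of the domain in WT, 1 point a domain, by what the domain touches. The red line is the group's median and the dotted line marks 50%. No domain over a zinc finger gene lies under the dotted line, and 45 of the 358 over other coding genes do.

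Coverage in KO differed by what the domain touched. All 155 domains over a zinc finger gene were at least 50% covered in KO, with a median of 95.1%, and 115 of them were covered over 90% or more. Domains over other coding genes had a median of 85.8%, and 45 of 358 were under 50%, where 49.9 percent of all WT broad peaks were, among them all 7 domains without any KO peak. Domains over non-coding genes or pseudogenes had a median of 86.3% and those over no gene 84.1%, with 97.4% and 94.0% at least 50% covered. Zinc finger domains were longer (median 11752 bp) and stronger in WT (median fold 4.18, the authors' own value for each peak) than those over other coding genes (7474.5 bp, 3.86). With the domains in 3 groups of about equal size by WT fold, in the lowest, 27 of 27 zinc finger domains and 57 of 77 over other coding genes (74.0%) were at least 50% covered, and in the highest 106 of 106 and 148 of 151 (98.0%). Among WT peaks of 2 to 5 kb, which are no members, 89.8% of those over zinc finger genes and 75.7% of those over other coding genes were. Many zinc finger genes are near-copies of their neighbours, and how reads that match several places were assigned is not given in the sources used here, so values of single genes in these runs are uncertain.

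Of the 83 domains under 50% covered in KO, 25 lay in 6 genes with more than 1 each, 11 of them in Wwox. Another 20 lay in coding genes with 1 each, 4 over non-coding genes or pseudogenes and 34 over no annotated gene. The median WT fold of the 83 was 3.64, against 3.79 for the other domains. Wwox, a tumour suppressor gene that spans a fragile site and is one of the longest genes of its region (chromosome 8, 114439635 to 115352712), held 15 domains over 192 kb. KO peaks covered 35.5% of these, with single domains between 0% and 81.3%, and 11 of the 15 were under 50%. Over the whole gene KO broad peaks covered 9.32% and WT broad peaks 29.7%. WT fold in the 15 domains ran from 3.57 to 3.97, and no H3K27me3 island touched the gene in any library.

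Other such genes had fewer domains. Smyd3, a methyltransferase gene, held 4 domains with 38.1%, 21.3%, 0% and 65.1% in KO peaks, and over the gene KO peaks covered 4.64% and WT peaks 14.0%. Camkmt, a calmodulin methyltransferase gene, held 7 domains between 0% and 97.0%, with 17.1% of the gene in KO peaks and 31.4% in WT peaks. Arl15, a gene of an Arf-like GTPase, held 4 domains with 74.9%, 35.3%, 33.6% and 0%. Ppm1h, a phosphatase gene, held 4 with 89.4%, 21.5%, 77.8% and 0%. Tiam1, a Rac exchange factor gene, held 3 with 0%, 20.7% and 40.5%, and Slc39a11, a zinc transporter gene, held 6 between 18.7% and 98.5%. The domain of Ank3 with no KO peak was 6.90 kb long. In Tiam1 the KO H3K27me3 list had an island over 100% of the domain without KO H3K9me3, which no WT list had.

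Not all domains in long genes had low coverage. The 2 domains in Tcf4, a transcription factor gene of chromosome 18, were 60.5 and 24.7 kb long with 90.7% and 69.7% in KO peaks. The domain of 41.5 kb in Ttn, the titin gene of muscle, had 90.3%. In Zfp978 on chromosome 4, 14 domains over 216 kb had between 86.6% and 100% in KO peaks, and KO and WT broad peaks each covered 87.7% of the gene. Runs of 5 or more domains with a zinc finger gene (23 of 34) had 91.5% of their length in KO peaks, the 11 without one 72.3%, and domains alone 81.2%. The 11 were unlike among themselves. The 4 that touched 1 named coding gene and no other (Wwox with 2 runs, Camkmt and Slc39a11) had between 25.5% and 62.5%, and the other 7 had between 81.0% and 95.7%, or 90.6% of their length together. This split was made after the values were seen.

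**Figure D5:**
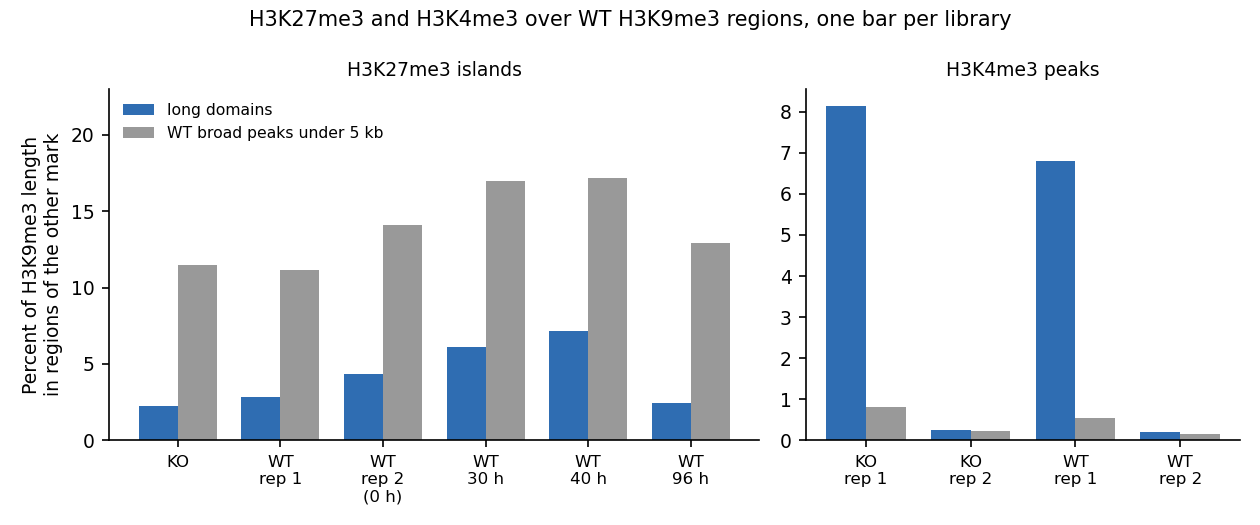
Percent of WT H3K9me3 length inside H3K27me3 islands (left) and H3K4me3 peaks (right), 1 bar per library, for the long domains (blue) and for WT broad peaks under 5 kb (grey). H3K27me3 covers less of the long domains than of shorter peaks in all 6 libraries, and H3K4me3 covers 8.14% and 6.80% of the long domains in replicate 1 of KO and WT and under 0.3% in replicate 2.

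Long domains carried little H3K27me3. Islands covered at least 50% of the length of 32 domains in KO (2.60%) and of 37 and 60 in WT replicates 1 and 2 (3.01% and 4.87%), against 14.9, 13.9 and 17 percent of all WT broad peaks in these libraries. By length, 2.28% of the domains lay in islands in KO and 2.84% and 4.33% in WT, and of peaks under 5 kb 11.5% in KO and 11.1% and 14.1% in WT. KO had 16.5 domains fewer than the WT mean of 48.5, which is less than the 23 domains between the 2 WT libraries, and with 1 KO library there was no test. Along regeneration the count was 60 at 0 h, 96 at 30 h, 103 at 40 h and 37 at 96 h, against 17, 19, 18.3 and 15.7 percent of all WT broad peaks. These are single libraries, and the 37 and 60 of the 2 baseline WT libraries lie as far apart as the lists at 0 and 96 h. No domain over a zinc finger gene reached 50% in KO or in WT at baseline or 96 h.

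The 22 domains at least 50% in islands in KO and in both WT baseline libraries were not of the zinc finger class as taken by symbol. Some still lay in a zinc finger cluster: those over Gm51792, Gm51793 and Gm19802 were inside the chromosome 10 run that holds Zfp433, Zfp781, Zfp873 and Zfp938. Among them were domains in or beside Cyp3a16, Cyp3a41a, Cyp3a41b, Cyp2b13, Sult2a1, Sult2a2 and Sult2a4, genes of steroid and drug metabolism, several of which mouse liver expresses more in females. The domain beside Cyp3a41a (chromosome 5, 145678251 to 145692828) was 100% in islands in all 6 libraries and 96.1% in KO H3K9me3 peaks. The island over it had a fold of 2.35 in KO, 2.54 and 2.35 in WT replicates 1 and 2, and 1.41, 1.66 and 2.72 at 30, 40 and 96 h. Another 5 domains were at least 50% covered in both WT libraries and not in KO, and 5 in KO and neither WT library.

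A few domains carried every mark. The first 38.3 kb of the listed part of chromosome 9 (3000006 to 3038298) had H3K4me3 over 97.8% and 27.01% in KO replicates 1 and 2 and 98.7% and 35.1% in WT replicates 1 and 2. H3K27me3 covered 100% of this domain in both WT baseline libraries and at 30 and 40 h, and none of it in KO or in WT at 96 h. The domain at 39842997 to 39848808 on chromosome 17, over the ribosomal RNA pseudogene Rn18s-rs5, had H3K4me3 over 100% and 58.6% in KO and 100% and 37.2% in WT, and H3K27me3 over 99.9% in KO and 100% in both WT libraries. The domain in Sfi1 (chromosome 11, 3187783 to 3200045) had H3K4me3 over 51.4% and 6.17% in KO and 48.7% and 5.96% in WT. For each list, SICER control counts per kb were set against their median over all islands kept. The control had 18.3 times this median over the chromosome 17 island in KO and 5.75 and 17.5 times in WT replicates 1 and 2. Over the Sfi1 island it had 13.9 times in KO and 15.2 and 6.94 times in WT, and over the chromosome 9 island 70.0 and 93.5 times in WT. At the Cyp3a41a island the same ratio was 1.48 in KO and 1.36 and 1.36 in WT. The part of high control counts in these marks was not tested.

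H3K4me3 over the domains depended on the library. A peak touched 474 domains in KO replicate 1 (38.5%) and 27 in KO replicate 2 (2.19%). In WT replicates 1 and 2 it touched 428 (34.8%) and 19 (1.54%). Of all WT broad peaks 2.98, 0.495, 2.26 and 0.461 percent were touched in that order, although longer regions touch peaks more easily. By length, peaks took 8.14% and 0.245% of the domains in KO replicates 1 and 2 and 6.80% and 0.211% in WT. Of WT broad peaks under 5 kb they took 0.802%, 0.224%, 0.544% and 0.158% in that order. The difference of KO and WT means was 27 domains (exact two-sided permutation p = 0.667, the smallest possible being 0.333). Within round 2 the counts were 27 in KO and 19 in WT, and between the libraries without a round 474 in KO and 428 in WT. KO was thus higher by 8 and by 46 domains in the 2 pairs, where flipping signs within pairs gives an exact p of 0.5, the smallest possible. The peaks inside domains were weak in replicate 1, with a median fold of 3.96 in KO and 4.08 in WT, where all peaks of these lists had 6.05 and 6.42, and their median length was 239 and 237 bp. Of the length of zinc finger domains, H3K4me3 took 17.3% and 0.138% in KO replicates 1 and 2 and 14.6% and 0.111% in WT, and of domains over no gene 2.29%, 0.325%, 1.74% and 0.336%. The domain over Zfp97 had 48.6% in KO replicate 1 and 34.3% in WT replicate 1 and none in either replicate 2 library, while the start of the gene, outside the domain, was marked in all 4.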

How the data were processed

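ChIP-seq of H3K9me3, H3K27me3 and H3K4me3 was done on whole mouse liver, and the authors deposited 1 region list per library. Reads were processed with FastQC 0.11.5, Trimmomatic, BWA, Picard, MACS2 and SICER against GRCm38.p4 (mm10), per the submitters' processing notes. Their settings, and which input served which list, are not stated in these sources. The authors' MACS2 lists hold for each peak a score, its enrichment as a fold over control, and p-value and q-value as −log10. The authors' SICER islands (window 1000 bp, gap 4000 bp, per the file names) give raw ChIP and control read counts, a fold scaled by the authors, a p-value and a false discovery rate used as q-value, and islands at 0.01 or below were kept. Total depth of the libraries is unknown, and longer or shorter lists can follow from depth.

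From these lists, overlaps were counted in bp, with a domain called covered at 50% of its length (islands and KO H3K9me3) or at 1 bp (H3K4me3). Genes and promoter windows came from RefSeq tables of GRCm38.p6, which carry the same chromosome coordinates as p4. The table of genes has no strand, which was taken from the promoter table, and no window of chromosome 18 was used. Groups were taken from the titles. H3K4me3 counts were compared by an exact permutation test over libraries. H3K9me3 and H3K27me3 in KO rest on 1 library, and no test was made. Intervals are exact Clopper-Pearson 95% intervals for counting error only, and neighbouring domains are not independent. Whether replicates were separate animals is not in the labels, so their spread may be technical. Members and gene lists were chosen with earlier results of these data known. The genes named are those of the 10 longest domains, of the 5 runs with the most domains, of the largest share or length in domains, of the lowest KO coverage and of the most H3K4me3 or H3K27me3, and members of the gene lists. Not every gene of this rule is named, and Tcf4, Ttn, Taf7, Zfp97, Zfp442 and the genes of the printed windows were also described for contrast, after their values were seen. The overlap code was tested on simulated lists. Python 3.11.15 with numpy 2.4.6, pandas 2.3.3, scipy 1.17.1, matplotlib 3.10.9 and Biopython 1.88 was used.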

Additional observations from a re-analysis of the deposited data

How the results depend on the processing

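The share of long domains at least 50% covered in KO was 93.3%. At a covered share of 0.25 it was 98.2% and at 0.8 it was 63.9%. It was 90.4%, 96.1% and 95.5% at a minimum length of 4, 8 and 10 kb, 80.0% with WT peaks within 1 kb merged, and 35.7% with KO narrow peaks. With KO broad peaks at a q of 1e-05 or below it was 5.69%, a limit that 4.96% of the WT long domains themselves passed. With the WT list cut to the length of the KO list, and without the 13 domains with H3K4me3 in all 4 libraries, it was 93.3% and 93.2% (both chosen after seeing the data). The cut, made by q-value, kept 1230 of the 1231 long domains, so it could hardly change the share and does not test unequal depth. The share of long domains with another nearby was 42.3% at 50 kb and 58.0% at 250 kb, 58.2% and 63.2% at 8 and 10 kb of length, 42.5% after merging and 53.6% for KO domains (chosen after seeing the data). The share in a protein-coding gene was 36.1% when 50% of the domain had to be in gene bodies, 36.4%, 60% and 68.4% at 4, 8 and 10 kb, and 32.5% after merging. The share in a zinc finger gene was 10.5% by that rule, 9.23%, 23.2% and 29.6% at 4, 8 and 10 kb, and 15.7% for KO domains (chosen after seeing the data). The KO minus WT difference in domains with H3K27me3 was negative in all 8 alternatives, and -28 and -5 without WT replicate 1 and 2. KO was close to WT replicate 1 alone, with 64 and 65 domains at 1 bp and 53 and 52 at a covered share of 0.1. WT replicate 2 had 98 and 84 at these settings. The KO minus WT difference for H3K4me3 was 27 domains and ran from -196.5 to 250.5 when 1 library was left out. It turned to -177.5 without WT replicate 2 and to -196.5 without KO replicate 1 (exact permutation p = 1 for both). Paired by round it stayed at 27 (chosen after seeing the data), although the labels give a round to 1 of the 2 pairs and no replicate numbers.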

Other observations

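The ends of domains were drawn differently in the 2 lists. In the 500 bp just inside an end, KO broad peaks covered on average 72.8% over the 310 ends of zinc finger domains and 57.5% over the 716 ends of domains over other coding genes. In the bin centred 2250 bp inside an end they covered 94.98% and 80.98%. In the 500 bp just outside an end, where the WT list has no peak by definition, KO peaks covered 43.8% and 29.5%. Much of this was also found farther away. In the bin centred at -9750 bp, outside the end, KO peaks covered 33.4% and 18.4% and WT peaks 36.4% and 22.7%. These shares describe 1 library per genotype.

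Of the 907 KO long domains, 6 lay under 50% in WT broad peaks. One in Zfp976 (chromosome 7, 42627690 to 42636508) was 47.5% in WT peaks and lies just beyond the domain of 72.7 kb over Zfp977 and Zfp976. One near Zfp640 (chromosome 13, 66720068 to 66727342) was 12.1% in WT peaks, and one in Tmem232 (chromosome 17, 65463154 to 65468604) was 46.4%.

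Of the domains at least 50% in H3K27me3 islands, 59 were so at both 30 and 40 h of regeneration, 16 of them in no baseline or 96 h library, and 19 were so in all 6 libraries. Islands that touch a long domain had a median fold of 1.38 and 1.36 at 30 and 40 h, against 1.72 in KO, 1.74 and 1.64 in WT replicates 1 and 2, and 1.72 at 96 h. At 30 and 40 h the median fold of all islands was also low, at 1.45 in both. Each time is 1 library, and no test was made.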
